A study of Danio rerio with 4 samples.

Results

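Laminins, perlecan and nidogens are the non-collagenous core of basement membranes, and 6 of their genes are among the 756 genes listed for cells that express the *apln* reporter in the zebrafish head. They were taken by symbol from the deposited table. They are the laminin genes *lama2* (NCBI gene 100049705), *lamb1a* (286830), *lamb1b* (556605) and *lamc3* (558958), the perlecan gene *hspg2* (565429) and the nidogen gene *nid2a* (322921, in the table as *wu:fb77a09*). All 6 were higher in Venus positive, mCherry negative cells than in double negative cells, by 1.57 to 4.76 on the log2 scale. The table is restricted to genes that had already passed the authors' test of this contrast. Each of the 754 genes tested here passed again at an adjusted p under 0.05 (edgeR), 484 (64.2%) higher and 270 lower. The direction of the 6 genes is therefore read only against that share, and a pass alone sets none of them apart. The libraries of the groups do not overlap in any of the 756 genes, with the Venus positive libraries higher in 485 (64.2%). The sizes of the 6 differences, the proportions of the genes to each other and their spread between libraries are described here.

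Cells were sorted from dissected heads of wild type larvae at 48 hpf carrying *Tg(kdrl:Hsa.HRAS-mCherry)*, which marks endothelial cells, together with *TgBAC(apln:Venus-PEST)*, which places a short-lived Venus under *apln* regulatory sequence. Venus positive, mCherry negative cells (2 libraries, numbered 3 and 4 in the table) were compared with cells negative for both reporters from the same kind of heads (2 libraries, replicates 1 and 2). Both populations are labelled as mixed in cell type, and nothing in the sources used here tells how many heads were pooled for a sort or if libraries of 1 group are independent clutches. The p-values therefore measure only the spread between these libraries, which may be technical.

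A laminin is a cross-shaped trimer of an alpha, a beta and a gamma chain. Laminins polymerise into a sheet at the cell surface, where integrins and dystroglycan hold it. Nidogens bridge this sheet to the collagen IV network, and perlecan, a large heparan sulfate proteoglycan, binds both and retains growth factors. The meninges are mesenchymal layers over the brain, and the pial layer lies on the basement membrane at the brain surface.

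Values are normalized read counts, that is, estimated reads per gene divided by the authors' size factor of the library, and are not corrected for gene length. The listed genes held 876579 and 1111669 reads in the Venus positive libraries, against 1175560 and 1136957 in the double negative libraries, which is not the full depth. *apln* itself had 11006 and 8899 normalized read counts in Venus positive cells and 651 and 802 in the double negative libraries. In bulk samples fewer cells of a type and less RNA per cell cannot be told apart. Of 26 endothelial and 31 neuronal or neural progenitor markers, 0 are in the table. Of 36 epidermal markers 20 were lower and 2 higher (22 in the table), and their summed normalized read counts were 48158 and 74847 in the Venus positive libraries against 404799 and 337049 in the double negative libraries. Of 27 erythrocyte markers 18 were lower, with summed counts of 5694 and 4049 in Venus positive cells against 219762 and 398463 in double negative cells. Embryonic globins such as *hbbe1.3* were thus lower but not absent in Venus positive cells, whereas *hbae5* and *gata1a* were at 0 there. Of 14 pericyte and smooth muscle markers only *mylka* is in the table (higher), as are 2 of 27 cartilage and bone markers (both higher, summed counts 8170 and 9330 in Venus positive cells against 2428 and 3745 in double negative cells), and 18 of 41 meningeal or mesenchymal genes that the study names, partly from other data sets, all higher. The cartilage and bone sums were almost wholly *col2a1b*, at 8018 and 9280 in Venus positive cells against 2426 and 3733 in double negative cells. The part of any of these cell types in the results below was not tested.

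The alpha chain gene *lama2* had the largest fold change of the 6. It encodes the laminin alpha chain of muscle and nerve basement membranes, whose loss causes a congenital muscular dystrophy in humans. The study uses *lama2* as a marker of the pial layer, but reports weak or no expression of its other pial markers, *lama1*, *ngfra* and *ngfrb*. It also reads *lama2* together with *crabp2a*, *aldh1a2* and *enpp2* as a leptomeningeal profile. *lama2* had 2151 and 885 normalized read counts in Venus positive cells, against 43.5 and 68.5 in the double negative libraries. The groups do not overlap, and the lower Venus positive library was 12.9 times the higher double negative one. The means were 1518 ± 895 in Venus positive cells and 56.0 ± 17.6 in double negative cells (SD, n = 2 libraries each), a 27.1-fold difference. The log2 fold change was 4.76 (standard error 0.61), rank 22 from the top of the 754 genes tested. The gene passed edgeR's quasi-likelihood test (adjusted p = 1.6e-05), as did each of the 754. Adjusted over all 23016 genes the authors tested, the adjusted p from edgeR was 4.8e-04. Leaving out each library in turn gave log2 fold changes of 3.98 to 5.26, and each of these passed. In such fits the group left with 1 library has no spread of its own and is assumed to vary like the other group. In a RefSeq table of another assembly (GRCz12tu) the span of *lama2* overlaps 5 other protein-coding genes, of which 0 are in the deposited table. Strand is not used in Smart-seq2, so reads of overlapping exons could not be told apart. Skeletal muscle, a tissue known for *lama2*, was represented by 4 of 40 markers in the table, with summed normalized read counts of 896 and 891 in the Venus positive libraries against 170.1 and 295 in the double negative libraries. The Venus positive sums were almost wholly the titin genes *ttn.2* (700 and 667) and *ttn.1* (195 and 224), which were higher. In TPM, which corrects for transcript length, *ttn.2* was at 0.815 and *ttn.1* at 0.28 in Venus positive cells. In double negative cells they were at 0.105 and 0.01 TPM. By contrast *pvalb2* and the myogenic factor *myf5* were lower, and *myf5* was at 0 in both Venus positive libraries. Muscle genes outside these markers were not counted. Among them *cacng1a* had 62.8 and 52.1 normalized read counts in Venus positive cells, against 0.82 and 0 in double negative cells. *chrng* had 55.3 and 36.4 in Venus positive cells, against 0 and 1.02 in double negative cells. The part of muscle cells in the *lama2* value was not tested.

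The gamma chain gene *lamc3* had the next largest fold change. In humans, mutations of its counterpart cause malformations of the occipital cortex. It had 9141 and 4408 normalized read counts in Venus positive cells, against 391 and 456 in the double negative libraries. Both Venus positive libraries lay far above the others, the lower one at 9.67 times the higher double negative one. The means were 6774 ± 3346 in Venus positive cells and 424 ± 45.9 in double negative cells (SD, n = 2 libraries each), a 16.0-fold difference. The log2 fold change was 4.0 (standard error 0.52), rank 43 of the 754 genes (adjusted p = 1.7e-05 from edgeR, and 5.2e-04 over all 23016 genes). It was 3.38 to 4.43 when each library was left out in turn.

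**Figure D1:**
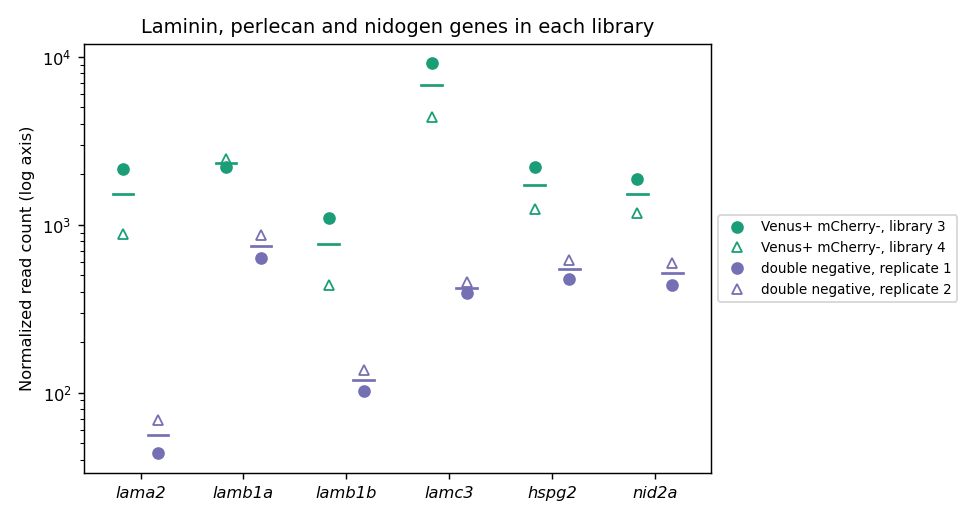
Normalized read counts (log axis) of the 6 genes in each of the 4 libraries, with horizontal bars at the group means of 2 libraries. For each gene both Venus positive, mCherry negative libraries lie above both double negative libraries, by the widest gap for *lama2* and *lamc3*, and *lamb1a* is the only one of the 6 that is not higher in library 3 than in library 4.

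The beta chain genes *lamb1a* and *lamb1b* are the zebrafish co-orthologues of one mammalian beta chain gene, and *lamb1a* is the *grumpy* locus, required for notochord differentiation. *lamb1a* had 2201 and 2463 normalized read counts in Venus positive cells, against 633 and 868 in the double negative libraries. *lamb1b* had 1099.8 and 438 in the Venus positive libraries, against 102 and 137 in the double negative libraries. The groups do not overlap for either gene, but the Venus positive libraries were close for *lamb1a* and 2.51-fold apart for *lamb1b*. *lamb1a* rose by 1.64 on the log2 scale (standard error 0.45, adjusted p = 0.00314 from edgeR) and *lamb1b* by 2.69 (standard error 0.60, adjusted p = 8.0e-04 from edgeR). Over all 23016 genes the adjusted p from edgeR was 0.0958 for *lamb1a* and 0.0243 for *lamb1b*. *lamb1a* missed the threshold once double negative replicate 1 was left out (adjusted p = 0.0536, edgeR). Related chains can share reads, although each estimated count of the 6 genes was a whole number in each library.

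The share of *lamb1b* in the reads of both beta chain genes does not depend on scaling between libraries. It was 875 of 2626 reads or 33.3% (95% Wilson interval 31.5 to 35.1) in Venus positive library 3 and 505 of 3344 reads (13.9 to 16.4%) in Venus positive library 4. In double negative cells it was 13.9% (11.8 to 16.3) in replicate 1 and 13.6% (11.6 to 15.9) in replicate 2. These intervals cover counting error only, since the reads carry no molecular identifiers. The interval of library 4 thus overlapped those of the double negative libraries, and library 3 stood apart from the other 3. Without library 3 the log2 fold changes of the 2 genes were 1.88 for *lamb1b* and 1.72 for *lamb1a*, and without library 4 they were 3.20 and 1.55. The larger fold change of *lamb1b* therefore rests largely on library 3.

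The linker genes changed by about as much as *lamb1a*. *hspg2*, the perlecan gene, had 2217 and 1239 normalized read counts in Venus positive cells, against 477 and 622 in the double negative libraries. *nid2a* had 1877 and 1184 in the Venus positive libraries, against 440.4 and 593 in the double negative libraries. For both genes the lower Venus positive library was 1.99 to 2.00 times the higher double negative one, the smallest gaps of the 6. Mean counts were 3.15-fold higher for *hspg2* and 2.96-fold higher for *nid2a*. The log2 fold change was 1.65 for *hspg2* (standard error 0.48, adjusted p = 0.00419 from edgeR) and 1.57 for *nid2a* (standard error 0.48, adjusted p = 0.00521 from edgeR). Over all 23016 genes the adjusted p-values from edgeR were 0.128 and 0.159, so 3 of the 6 members (*lama2*, *lamc3* and *lamb1b*) passed there. Of the 754 genes tested here 224 (29.7%) were called higher there, all from the 484 that were higher. Without Venus positive library 3 the adjusted p-values were 0.064 for *hspg2* and 0.0609 for *nid2a* (edgeR), and 4 of the 6 members passed where 57.8% of the genes tested were called higher. When double negative replicate 1 was left out, *nid2a* (adjusted p = 0.0639, edgeR) and *lamb1a* missed, and 4 of the 6 passed against 62.5% of the genes tested. The shares of 57.8% and 62.5% have the lower genes in their base, whereas all 6 members were higher. Hence 4 of the 6 cannot be read as above either share. Under TMM and RLE scaling over the listed genes, where 11.1% and 9.55% of the genes tested were called higher, 2 of the 6 passed, *lama2* and *lamc3*. The fold changes of *lamb1a*, *hspg2* and *nid2a* were below 0 under both. The median log2 fold change of the 6 was 2.17, against 2.39 over the 484 genes called higher and 1.85 over all 754.

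**Figure D2:**
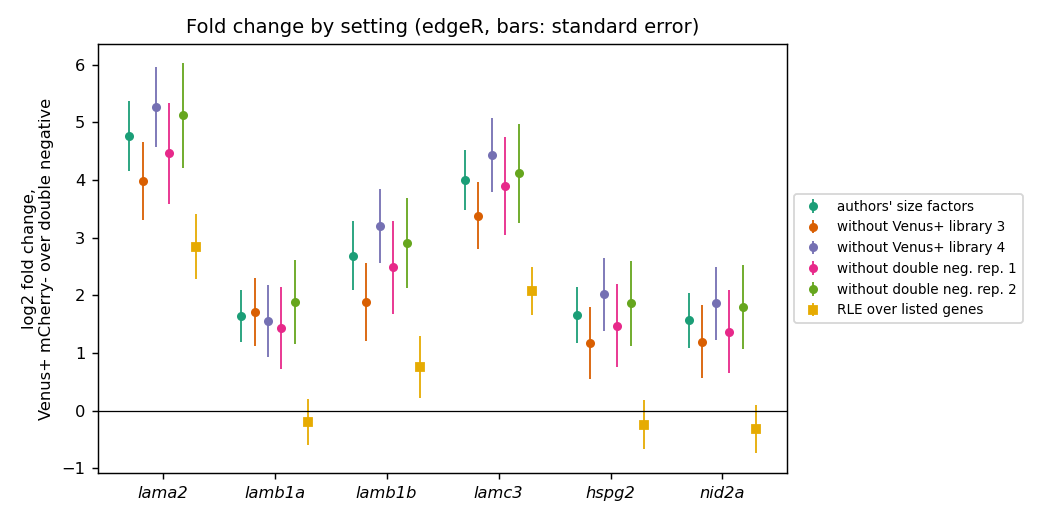
Log2 fold change of each gene from edgeR, Venus positive, mCherry negative over double negative cells, with standard error bars, for the authors' size factors, for each library left out and for RLE scaling over the listed genes. *lama2* and *lamc3* stay above 2 in each setting shown, whereas *lamb1a*, *hspg2* and *nid2a* fall just below 0 under RLE scaling, which sets the middle of this selected list near no change.

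Levels of different genes were compared as TPM, which corrects for transcript length, using the authors' mean of the 2 libraries of each group. In Venus positive cells *lamc3* stood highest at 123 TPM, followed by *lamb1a* at 51.4, *nid2a* at 36.1, *lama2* at 19.9, *lamb1b* at 15.4 and *hspg2* at 12.7 TPM. In double negative cells the order began with *lamb1a* at 14.3 TPM and *nid2a* at 10.4, followed by *lamc3* at 7.07, *hspg2* at 3.64, *lamb1b* at 2.2 and *lama2* at 0.67 TPM. The gamma chain gene thus moved ahead of *lamb1a*, at 2.39 times its TPM in Venus positive cells against 0.493 times in double negative cells. *lama2* was last in double negative cells, where *lamb1a* was at 21.4 times its TPM, against 2.58 times in Venus positive cells. These pooled ratios join Venus positive libraries that differ. Counted in reads, without correction for length, *lamc3* over *lamb1a* was 4.15 and 1.79 in Venus positive libraries 3 and 4, against 0.618 and 0.525 in the double negative libraries. *lamb1a* over *lama2* was 1.02 and 2.78 in Venus positive libraries 3 and 4, against 14.5 and 12.7 in the double negative libraries. Neither ratio overlaps between the groups, but how many other pairs of listed genes separate in this way was not counted. Each ratio also differed widely between Venus positive libraries 3 and 4. The 4 laminin genes summed to 209.8 TPM in Venus positive cells and 24.3 TPM in double negative cells. The Venus positive TPM values are pooled with no SD here, so neighbours in that order are not shown to differ. In double negative cells the TPM of each library was read too. It was 14.04 and 14.65 for *lamb1a*, 9.94 and 10.93 for *nid2a*, 7.49 and 6.64 for *lamc3*, 3.64 and 3.63 for *hspg2*, 2.17 and 2.22 for *lamb1b* and 0.61 and 0.73 for *lama2*, so that no neighbours in that order overlapped between these 2 libraries.

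**Figure D3:**
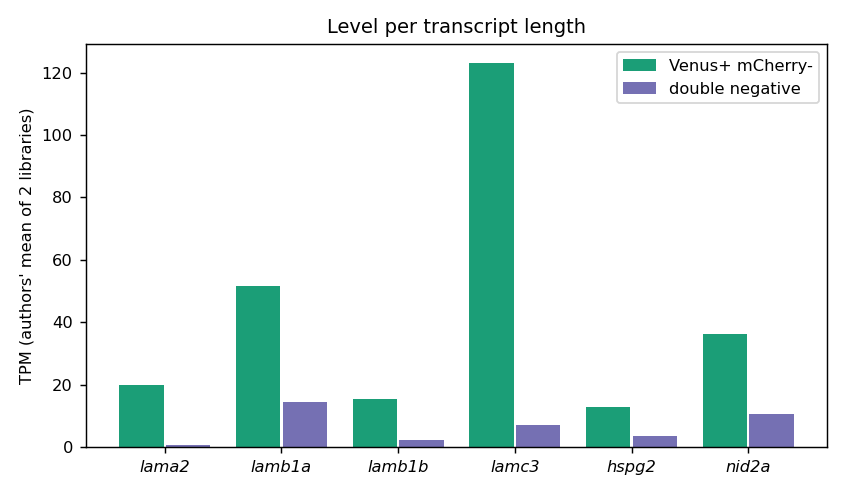
TPM of the 6 genes, as the authors' mean of 2 libraries per group (bars from 0, Venus positive, mCherry negative cells left and double negative cells right). *lamc3* is highest in the Venus positive cells at 123 TPM, and *lamb1a* is highest of the 6 in the double negative cells at 14.3 TPM.

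Ratios of 2 genes within a library are free of any scaling between libraries, and *hspg2* was used as the common denominator. The reads of *lama2* over *hspg2* were 0.97 and 0.714 in the Venus positive libraries, against 0.0914 and 0.11 in the double negative libraries. Those of *lamc3* over *hspg2* were 4.12 and 3.56 in the Venus positive libraries, against 0.821 and 0.734 in the double negative libraries. Both ratios separated the groups, by 3.05 and 2.30 on the log2 scale, with SDs of 0.11 to 0.31 within groups (n = 2). The denominator *hspg2* changed little for a higher gene (rank 439 from the top by log2 fold change, with 484 genes called higher). How many other listed genes separate over it was not counted, so the separation is not read as particular to *lama2* and *lamc3*. *nid2a* over *hspg2* was 0.846 and 0.956 in the Venus positive libraries, against 0.924 and 0.954 in the double negative libraries. The reads of *nid2a* and *hspg2* therefore stood in overlapping proportions in both populations, with a log2 difference of -0.06. *lamb1a* over *hspg2* was 0.993 and 1.99 in the Venus positive libraries, on either side of 1.33 and 1.40 in the double negative libraries. *lamb1b* over *hspg2* was 0.496 and 0.354 in the Venus positive libraries, against 0.214 and 0.22 in the double negative libraries. It also separated the groups, by 0.95 on the log2 scale, with SDs of 0.35 (Venus positive) and 0.03 (double negative) within groups. With 2 libraries a group an exact permutation test cannot go below p = 0.333, so these ratios are given without a test.

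**Figure D4:**
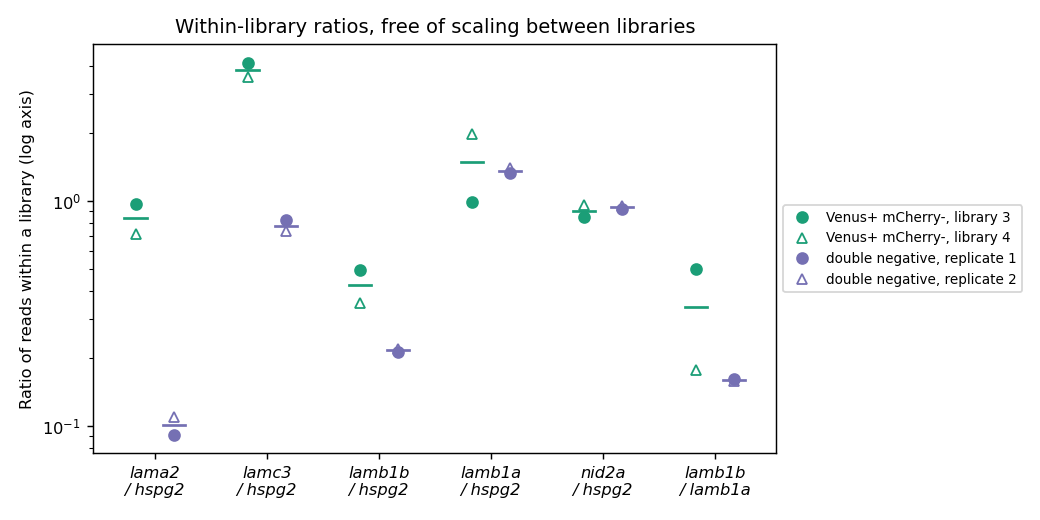
Ratios of reads of 2 genes within each library (log axis), with horizontal bars at the group means of 2 libraries. The ratios of *lama2*, *lamc3* and *lamb1b* to *hspg2* are higher in both Venus positive, mCherry negative libraries. Those of *lamb1a* and *nid2a* to *hspg2* overlap between groups, and that of *lamb1b* to *lamb1a* is high in library 3 alone.

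The 2 Venus positive libraries differed for most members. Library 3 was above library 4 in 5 of the 6, by 2.51-fold for *lamb1b*, 2.43-fold for *lama2*, 2.07-fold for *lamc3*, 1.79-fold for *hspg2* and 1.58-fold for *nid2a*. In *lamb1a* it was at 0.894 times library 4. Of the 484 genes called higher, 341 (70.5%) were above in library 3, with a median log2 ratio of 0.38 and 10th and 90th percentiles of -0.57 and 1.33. *lamb1b* and *lama2* lay above 89.7% and 88.8% of these genes in that ratio, and *lamb1a* above 22.1%. In double negative cells replicate 2 was at 1.17 to 1.57 times replicate 1 in the 6 genes, closer than the Venus positive pair in each of them except *lamb1a*, where it was at 1.37 times.

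**Figure D5:**
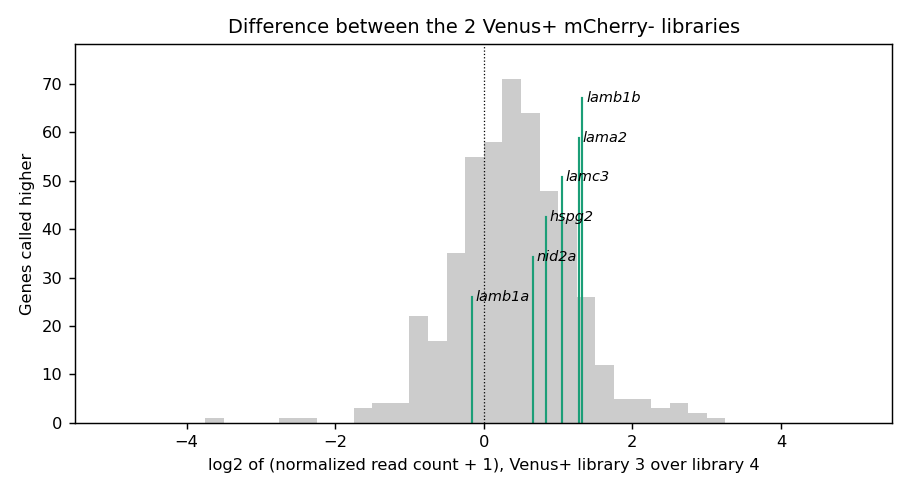
Histogram of the log2 ratio of normalized read count + 1 between Venus positive libraries 3 and 4 over the 484 genes called higher, with the 6 members as vertical lines whose heights carry no value. *lamb1a* lies left of 0 and the other 5 lie right of it, *lama2* and *lamb1b* farthest.

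Other genes of the basement membrane were read from lists by role. Of 14 laminin chain genes the 4 members are in the table and the other 10, among them *lama1*, *lama4*, *lama5* and *lamc1*, are not, and of 6 nidogen, perlecan and agrin genes the 2 members are. A gene outside the table was not called by the authors at a Q value under 0.05, which does not show equal levels. Of 10 network collagen genes 4 are in the table and all 4, the collagen IV chain genes *col4a1* (2.27 on the log2 scale), *col4a2* (2.30), *col4a5* (1.54) and *col4a6* (1.52), were higher. 0 of these 4 passed over all 23016 genes, where 224 of the 754 genes tested here (29.7%) were called higher (edgeR). *col4a1* had 654 and 247 normalized read counts in Venus positive cells, against 70.7 and 115.5 in the double negative libraries. *col4a5* had 2756 and 2789 in the Venus positive libraries, against 800.2 and 1112 in the double negative libraries. Like *lamb1b*, *col4a1* and *col4a2* (640 and 252 in Venus positive libraries 3 and 4) were much higher in library 3 than in library 4. *col4a5* was close between them, like *lamb1a*. *col4a6* lay between these patterns, at 3370 and 1972 in Venus positive libraries 3 and 4.

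Of 32 genes for proteins associated with basement membranes 5 are in the table and all 5 were higher. They are *frem1b* (3.53 on the log2 scale), a Fraser complex gene, *hmcn1* (3.43), which encodes hemicentin, *smoc1* (2.71), *loxl3b* (2.69), a lysyl oxidase that crosslinks collagen, and *fbln2* (1.99). Of 19 integrin and related laminin receptor genes 4 are in the table and were higher, namely the collagen-binding integrin chains *itga11b* (4.43) and *itga11a* (2.72), *itga9* (3.89) and the shared beta chain *itgb1a* (1.71). Outside this list the integrin genes *itga4* (3.14), *itga8* (3.00) and *itgb5* (2.63) are also in the table and were higher. The alpha chains best known as laminin receptors, *itga3a*, *itga3b*, *itga6a*, *itga6b* and *itga7*, are not in the table. *itgb1a*, the partner chain of those integrins, had 1058 and 535 normalized read counts in Venus positive cells, against 185 and 303 in the double negative libraries. Of 15 genes of the dystroglycan complex 3 are in the table and were higher, among them the sarcoglycans *sgcb* (2.65) and *sgcd* (1.96), whereas *dag1* itself is not. 0 of 13 genes that glycosylate dystroglycan are in the table. Of 35 genes of heparan sulfate synthesis and editing only *sulf1*, a sulfatase acting on heparan sulfate chains, is in the table (1.70), and of 13 membrane heparan sulfate proteoglycans only *sdc2*, a syndecan (2.15). All of these list members were called higher, where 64.2% of all genes tested were. Over all 23016 genes 3 of the 5 associated proteins, 3 of the 4 receptor list genes and *sdc2* also passed (edgeR). By the same adjustment 0 of the 3 dystroglycan complex genes passed, and *sulf1* did not pass. There 224 of the 754 genes tested here (29.7%) were called higher. The receptor list genes that passed were *itga11a*, *itga11b* and *itga9*, whereas *itgb1a* did not pass.

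The listed genes whose centred log2 profile over the 4 libraries lay nearest to each member were found by Euclidean distance, as a description over 4 points. Nearest to *lama2* was LOC110438377 (distance 0.33) and then *trabd2b* (0.37), which encodes a membrane metalloprotease that cleaves Wnt proteins, with 2087 and 1045 normalized read counts in Venus positive cells against 50.1 and 96.1 in the double negative libraries. Nearest to *lamc3* was *cyp1c1* (0.09), a cytochrome P450, and then *thbs3b* (0.43), a thrombospondin. *lamb1a* lay nearest to the chemokine scavenger receptor gene *ackr3b* (0.13), to *col4a5* (0.14) and to the metalloproteinase inhibitor *timp2a* (0.16). *lamb1b* lay nearest to *abcb6b* (0.08), *si:dkey-22o22.2* (0.09) and *smoc1* (0.16). *hspg2* lay nearest to *cyp26c1* (0.13), which degrades retinoic acid, and *nid2a* (0.14), and *nid2a* to *cavin2b* (0.10), to the retinol-binding protein gene *rbp5* (0.10) and to *hspg2* (0.14). *hspg2* and *nid2a* were the only members among the 3 nearest genes of another member.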

How the data were processed

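Venus positive, mCherry negative and double negative cells were profiled with Smart-seq2, 2 libraries each. Per the methods and the submitters' processing notes, the authors mapped reads to GRCz11 (HISAT2 2.0.4, Bowtie2 2.4.4), estimated counts with RSEM 1.2.28 and compared groups with DESeq2. The deposited table holds 756 genes with per-library expected (estimated) counts, per-library TPM, and a normalized count signal that the authors made by dividing by a size factor. Its deposited p-values and Q values are the authors' comparison. They served only to establish the selection: each of the 756 genes has Q under 0.05, and Q matches the p-values adjusted by Benjamini-Hochberg for 23016 genes. Left out were 18 columns comparing single libraries and 8 other columns of per-library values.

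Counts were raised to whole numbers. Size factors were 0.796 and 1.15 for Venus positive libraries 3 and 4 (from normalized counts of 7 genes in the study's Source Data) and 1.22 and 0.978 for double negative replicates 1 and 2 (from the table). The deposited average normalized counts use 1 factor per group instead, 0.934 and 1.07, tried as an alternative chosen after seeing the data. Groups were compared with the two-sided quasi-likelihood test of edgeR 4.0.16 under R 4.3.3, with group as the only term. It was tested on simulated data. Genes with 10 or more counts in 2 or more libraries entered (754), and p-values were adjusted over them by Benjamini-Hochberg with a threshold of 0.05. They were also adjusted with the number of tests set to the 23016 genes of the authors' comparison. DESeq2 1.42.0 was an alternative. The spread comes from genes already selected by a test, so p-values can be too small. Lists matched by symbol or by NCBI gene ID (737 of 756 IDs in a RefSeq table of GRCz12tu, names only). The members and lists were chosen with earlier results of these data known. Named were the 6 members, 2 or 3 of the 3 genes nearest to each member and up to 4 list genes with the largest change. In the collagen IV, associated protein and marker lists others were named too, chosen after their values were seen. The muscle genes *cacng1a* and *chrng*, which are in no list, were named in the same way. Integrin genes outside the lists were found by symbol. The values of 1 list gene are not reported here.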

Additional observations from a re-analysis of the deposited data

How the results depend on the processing

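The 6 genes were called higher with the authors' size factors, without scaling, with 1 factor per group, with DESeq2, with either other filter on low counts and with counts rounded to the nearest whole number. Under each of these settings every gene tested was called higher or lower (484 and 270 of 754 with the authors' size factors). These calls therefore follow from the selection of the list and do not set the 6 apart. TMM and RLE scaling over the listed genes set the middle of a list selected for change near 0 and moved the median log2 fold change of all tested genes to 0.08 and -0.02. They left 84 and 72 genes called higher, and 2 of the 6 members, *lama2* and *lamc3* (2.97 and 2.2 with TMM, 2.85 and 2.08 with RLE). The log2 fold change turned to -0.10 and -0.20 for *lamb1a*, -0.13 and -0.24 for *hspg2* and -0.21 and -0.32 for *nid2a*, and *lamb1b* lost its call at 0.88 and 0.76. Adjusted over all 23016 genes, 224 genes and 3 members were called higher. With each library left out in turn, 400 to 448 genes were called higher, 131 to 268 lower (138 without double negative replicate 1 and 131 without replicate 2, where 640 genes were tested), and 4 to 6 of the members higher. The log2 fold changes then ran from 3.98 to 5.26 for *lama2*, 3.38 to 4.43 for *lamc3*, 1.88 to 3.20 for *lamb1b*, 1.43 to 1.88 for *lamb1a*, 1.17 to 2.01 for *hspg2* and 1.2 to 1.86 for *nid2a*. The within-library ratios were identical with counts as deposited. No paired analysis was possible because the columns of the Venus positive libraries do not carry the replicate numbers of the labels. With 2 libraries a group, the spread of each is poorly known.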
